A study of Mus musculus with 2 samples.

Results

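The genes described here are 43 components, feedback regulators and targets of the Wnt pathway, together with marker genes of intestinal stem and regenerating cells. They were chosen by symbol, with earlier results of these data known. Each gene was represented by the probe set carrying its symbol alone, or by the brightest such probe set where there were several. Of the 43 genes, 41 had a probe set of this kind, and Tcf7 and Ly6a were not analysed here. A gene was taken as measured when its signal lay above the 40th percentile of the array, used as a floor, on at least 1 of the 2 arrays. This held for 34 of the 41, out of 13332 measured genes among 18193 named ones.

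The samples were 2 cultures of CMT-93, a mouse rectal carcinoma line, each profiled on 1 array. One was the parental line. The other, CMT-93-PM1, was grown from lung tumours found 8 weeks after parental cells had been injected into tail veins of C57BL/6 female mice aged 6 weeks. The labels do not say how many mice or tumours contributed to CMT-93-PM1, and such a primary culture can carry cells of the host lung. Both cultures were kept in the same serum-containing medium.

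Wnt ligands bind Frizzled receptors and the co-receptors Lrp5 and Lrp6. This halts a destruction complex built around Apc and Axin, so that beta-catenin accumulates, enters the nucleus and drives target genes with factors of the Tcf/Lef family. R-spondins, bound by Lgr4, Lgr5 and Lgr6, strengthen the signal by removing the ubiquitin ligases Rnf43 and Znrf3, which otherwise clear Frizzled receptors from the cell surface. In the gut this pathway maintains the crypt stem cells, and several of its targets, among them Axin2, Rnf43, Znrf3, Nkd1 and Notum, act back on it as inhibitors.

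Among the 34 measured members, 4 were at least 2-fold higher in the lung-recovered line. These were the stem cell receptor gene Lgr5, the feedback ligase gene Rnf43, the co-receptor gene Lrp5 and the ligand gene Wnt6. They made up 11.8% of the measured members, beside 4.42% of all measured genes. Lrp5 was under the floor on the parental array and counted as measured only through the array where it was higher. The members were chosen with earlier results of these data known, so these shares are a description only. Wnt4, another ligand gene, was the only member at least 2-fold lower, or 2.94% beside 2.55% of all measured genes. The other 29 members were within 2-fold, and 16 of the 34 (47.1%, beside 49.2% of all measured genes) had a log2 ratio above 0. The median log2 ratio (lung-recovered minus parental) was -0.08 over the members and 0.00 over all measured genes, and the members' mean was 0.16. With 1 array per group there was no replicate check of any of these differences and no test, and effects of culture, labelling or hybridization cannot be told apart from a difference between the lines. In RNA from whole cultures, fewer cells expressing a gene and less RNA per cell cannot be told apart either.

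**Figure D1:**
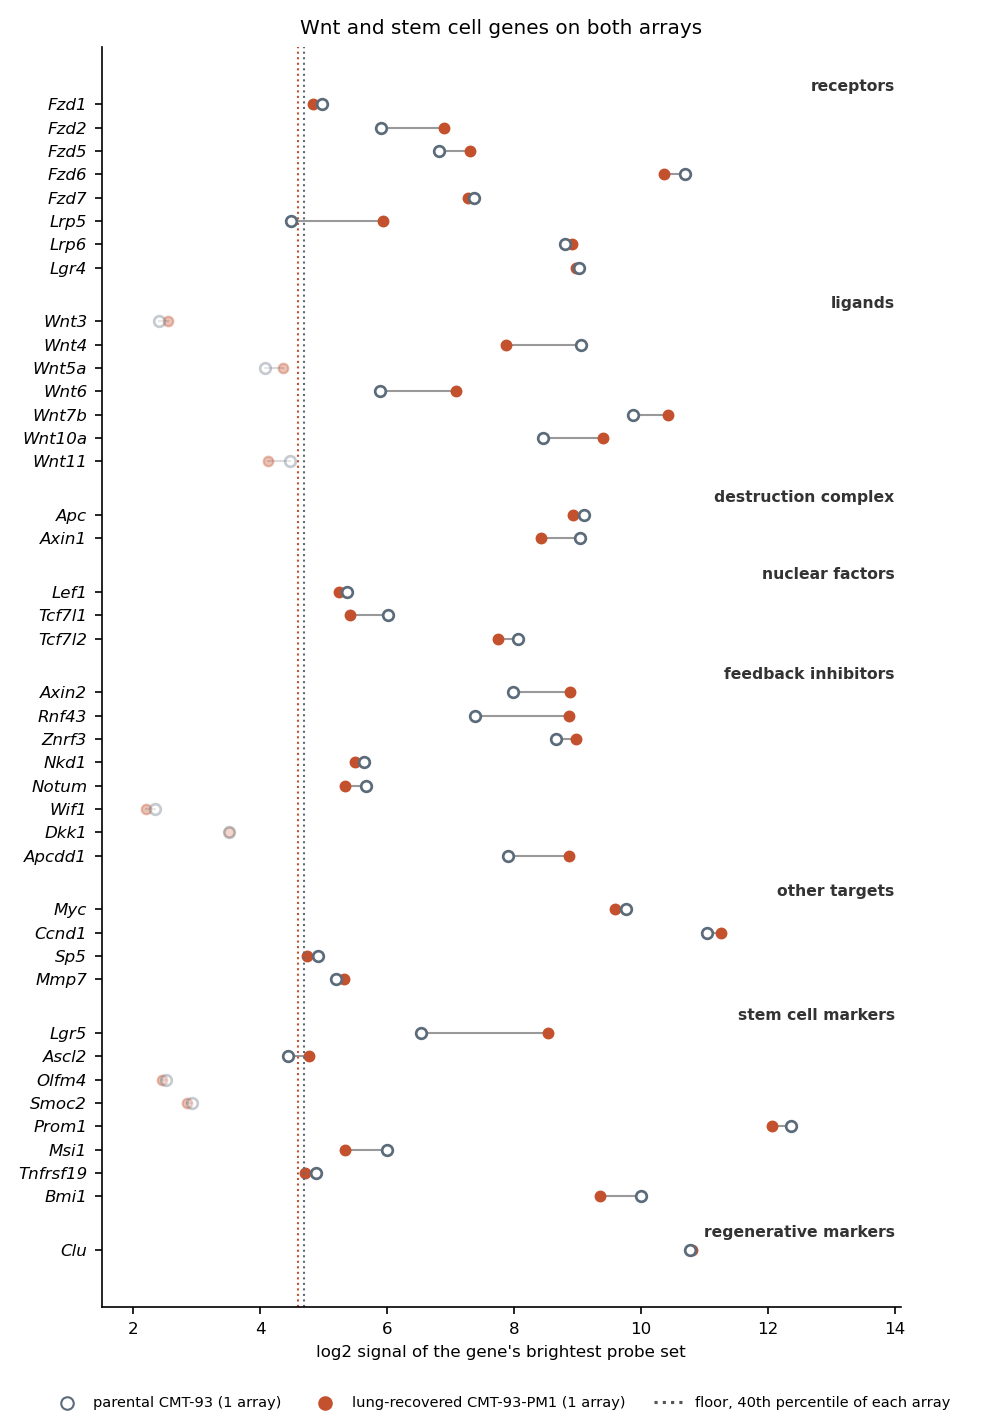
Log2 signal of the brightest probe set of the 41 genes on the parental (open circles) and lung-recovered (filled circles) arrays, 1 array each, grouped by role. Dotted lines mark each array's floor, 4.69 for parental and 4.59 for lung-recovered, and faded genes were at the floor on both. Lgr5 shows the widest gap between the arrays, from 6.54 to 8.54, and Wnt4 runs the other way, from 9.05 to 7.87.

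Promoter sequence is given for Rnf43, Wnt6 and Wnt4, the members at least 2-fold apart that the RefSeq table of mouse promoters (build GRCm38.p6) lists. It is also given for Sp5, a Wnt target gene whose signal was close to the floor and nearly the same on both arrays. The window of Sp5 holds a match to a Tcf/Lef recognition word. Each sequence is the 250 bases 5′ of the annotated transcript start, and capitals mark matches to CTTTGAA or CTTTGAT on either strand.
Rnf43 (chr11:87662837-87663086, + strand): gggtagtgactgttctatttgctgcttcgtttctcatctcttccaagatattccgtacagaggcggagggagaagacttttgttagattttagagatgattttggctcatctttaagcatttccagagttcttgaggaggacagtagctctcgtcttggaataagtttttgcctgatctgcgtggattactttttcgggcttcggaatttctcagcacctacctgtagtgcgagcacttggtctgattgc
Wnt6 (chr1:74771642-74771891, + strand): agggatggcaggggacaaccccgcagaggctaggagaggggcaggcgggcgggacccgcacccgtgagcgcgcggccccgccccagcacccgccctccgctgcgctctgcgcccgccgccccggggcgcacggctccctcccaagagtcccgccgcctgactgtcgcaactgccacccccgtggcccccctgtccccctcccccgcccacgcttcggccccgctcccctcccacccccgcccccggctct
Wnt4 (chr4:137277385-137277634, + strand): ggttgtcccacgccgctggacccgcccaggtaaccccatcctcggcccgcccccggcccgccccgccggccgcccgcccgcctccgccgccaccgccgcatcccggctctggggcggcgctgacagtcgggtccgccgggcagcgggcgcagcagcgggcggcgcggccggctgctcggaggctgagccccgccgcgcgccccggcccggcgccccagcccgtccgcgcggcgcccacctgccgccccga
Sp5 (chr2:70474673-70474922, + strand): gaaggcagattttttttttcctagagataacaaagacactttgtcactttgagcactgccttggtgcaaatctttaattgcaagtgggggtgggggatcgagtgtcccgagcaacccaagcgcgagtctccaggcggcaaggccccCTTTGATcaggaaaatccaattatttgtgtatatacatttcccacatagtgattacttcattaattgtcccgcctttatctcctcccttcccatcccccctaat
The windows of Rnf43, Wnt6 and Wnt4 are all in lower case because neither word occurs there. The match in Sp5, CTTTGAT, begins 104 bases before the start. Rnf43 has a second annotated start, and its window held no match either. In the full table, whose windows run 50 bases past the start, 8.65% of 32851 windows held a match, and 6 of the 34 windows of 24 listed genes did so, namely those of Sp5, Wnt11, Dkk1, both of Mmp7, which overlap and share the match, and 1 of Tnfrsf19. None of these 5 genes was 2-fold apart. Wnt11 and Dkk1 were not measured. The Wnt4 and Wnt6 stretches shown were 85.2% and 79.6% G and C, and that of Rnf43 was 44.4%. A match, or its lack in so short a window, is a description of the letters only, and the arrays did not measure binding or promoter use.

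All 8 receptor genes were measured, with log2 ratios from -0.33 to 1.24. Lrp5, a co-receptor that Wnt ligands join to Frizzled, read 4.49 log2 on the parental array, below its floor of 4.69, and 5.93 on the lung-recovered array. It was therefore at least 2.36-fold higher, a bound from the single Lrp5 probe set (1449299_at), which lies on a dim part of the scale. Its relative Lrp6 read 8.81 and 8.91, a log2 ratio of 0.10, with 0.20 by its other probe set. By the brightest probe sets, Lrp5 thus stood apart from Lrp6 by 1.14 log2 or more, and by less against the other Lrp6 probe set.

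Among the Frizzled genes, which encode the Wnt receptors proper, Fzd2 was furthest from 0. It read 5.91 and 6.89, or 1.97-fold higher and just short of 2-fold, and its other probe sets gave 0.90 (1418533_s_at) and 1.29 (1418534_at) log2. The Fzd2 probe sets thus fell on both sides of 2-fold. Fzd7 and Fzd1, its nearest relatives, had log2 ratios of -0.10 and -0.14. Fzd5, a Frizzled gene linked to Paneth cell maturation, read 6.82 and 7.30 by its brightest probe set but 6.34 and 6.35 by its other. Fzd6 was lower by all 3 of its probe sets, at 10.69 and 10.36 by the brightest and with log2 ratios from -0.77 to -0.33. Lgr4, the broadly expressed R-spondin receptor gene, read 9.02 and 8.97.

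Of the 7 ligand genes, 4 were measured. Past 2-fold, 1 was higher (25.0%, beside 4.42% of all measured genes) and 1 lower (25.0%, beside 2.55%). With 4 genes the list cannot be set apart from all measured genes. Wnt6 read 5.89 in the parental line and 7.08 in the lung-recovered line by probe set 1419708_at, or 2.28-fold higher. Its other probe set, 1435980_x_at, read 3.44 and 5.71 and was at least 2.03-fold higher from the parental floor. Both Wnt6 probe sets therefore passed 2-fold in the same direction. Wnt10a, which had 1 probe set, read 8.45 and 9.40 and was 1.93-fold higher. Wnt7b was 1.47-fold higher at 9.87 and 10.43, and its second probe set read 8.45 and 8.94. Of these 3 ligand genes, Wnt6 alone passed 2-fold.

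Wnt4 went the other way, at 9.05 and 7.87 by probe set 1450782_at, or 2.27-fold lower, and 7.64 and 6.82 by 1441687_at, or 1.77-fold lower. Wnt3, a ligand made by Paneth cells in the crypt, was at the floor on both arrays (2.40 and 2.54). So were Wnt5a and Wnt11, ligands best known for beta-catenin-independent signalling, at 4.07 and 4.36 for Wnt5a and 4.46 and 4.12 for Wnt11. The last 2 lay closest under the floor, while Ascl2 (below) lay closest above it.

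The destruction complex genes were within 2-fold. Axin1, its scaffold, was lower by both probe sets, at 9.04 and 8.42 (1.54-fold) and at 7.32 and 6.95. Apc, the tumour suppressor that holds beta-catenin for degradation, read 9.10 and 8.93 by its brightest probe set, but its other measured ones gave log2 ratios of -0.78 (1435543_at) and 0.24 (1450056_at). The probe sets of Apc thus disagreed in sign and had an SD of 0.51 log2, the largest among the 19 members with several measured probe sets.

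The 3 nuclear factors measured had ratios below 0 by their brightest probe sets. Tcf7l2, the main Tcf factor of the gut epithelium, read 8.06 and 7.74, yet its other probe sets gave log2 ratios of 0.62, 0.28 and -0.24, so it had no single direction. Tcf7l1, mostly a repressor, read 6.01 and 5.42 by 1 probe set and was close to the floor by the other (4.56 and 4.73). Lef1, often raised where Wnt signalling is high, was dim at 5.37 and 5.24.

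Of the 8 feedback inhibitors, 6 were measured, and 1 was at least 2-fold higher (16.7%, beside 4.42% of all measured genes). So few genes cannot set the list apart. Rnf43 read 7.39 in the parental line and 8.86 in the lung-recovered line by its only probe set, 1427008_at, or 2.77-fold higher. It was above the floor on both arrays, and 1.76% of measured genes had a ratio at least as high. Znrf3, its partner ligase with the same role, read 8.66 and 8.98 by the brighter probe set and 5.68 and 5.41 by the dimmer, so its direction was not the same across probe sets. The log2 ratio of Rnf43 exceeded that of Znrf3 by 1.15.

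Axin2, a beta-catenin target widely used as a readout of Wnt signalling, was 1.85-fold higher at 7.99 and 8.88, and its dimmer probe set (1421341_at) read 5.01 and 5.53. Both Axin2 probe sets were thus higher and neither reached 2-fold, while Axin1 was lower by both of its own, a gap of 1.51 log2 between the brightest probe sets of these related scaffolds. Apcdd1, a membrane inhibitor that binds Wnt ligands, read 7.91 and 8.87 and was 1.95-fold higher. Its other measured probe sets gave log2 ratios of 0.98, 0.94, 0.71 and -0.04, so 4 of 5 were higher. Nkd1, which binds Dishevelled, read 5.63 and 5.49, and Notum, a secreted enzyme that inactivates Wnt ligands, read 5.67 and 5.34, with ratios of -0.14 and -0.33. Feedback targets therefore did not all lie on 1 side: Rnf43, Axin2 and Apcdd1 were higher by at least 1.85-fold, and Nkd1 and Notum, dim on both arrays, were slightly lower. The secreted inhibitor genes Wif1 (2.34 and 2.20) and Dkk1 (3.51 on both arrays) were at the floor.

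The 4 other targets among the members differed little between the arrays. Myc, the growth regulator, read 9.77 and 9.59. Ccnd1, which encodes cyclin D1, read 11.04 and 11.27, with log2 ratios of 0.28 and 0.39 by its other probe sets. Sp5, a transcription factor gene, read 4.91 and 4.73, and the metalloproteinase gene Mmp7 read 5.20 and 5.32, both close to the floor. The 4 log2 ratios ran from -0.18 to 0.23, around a median of -0.03.

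**Figure D2:**
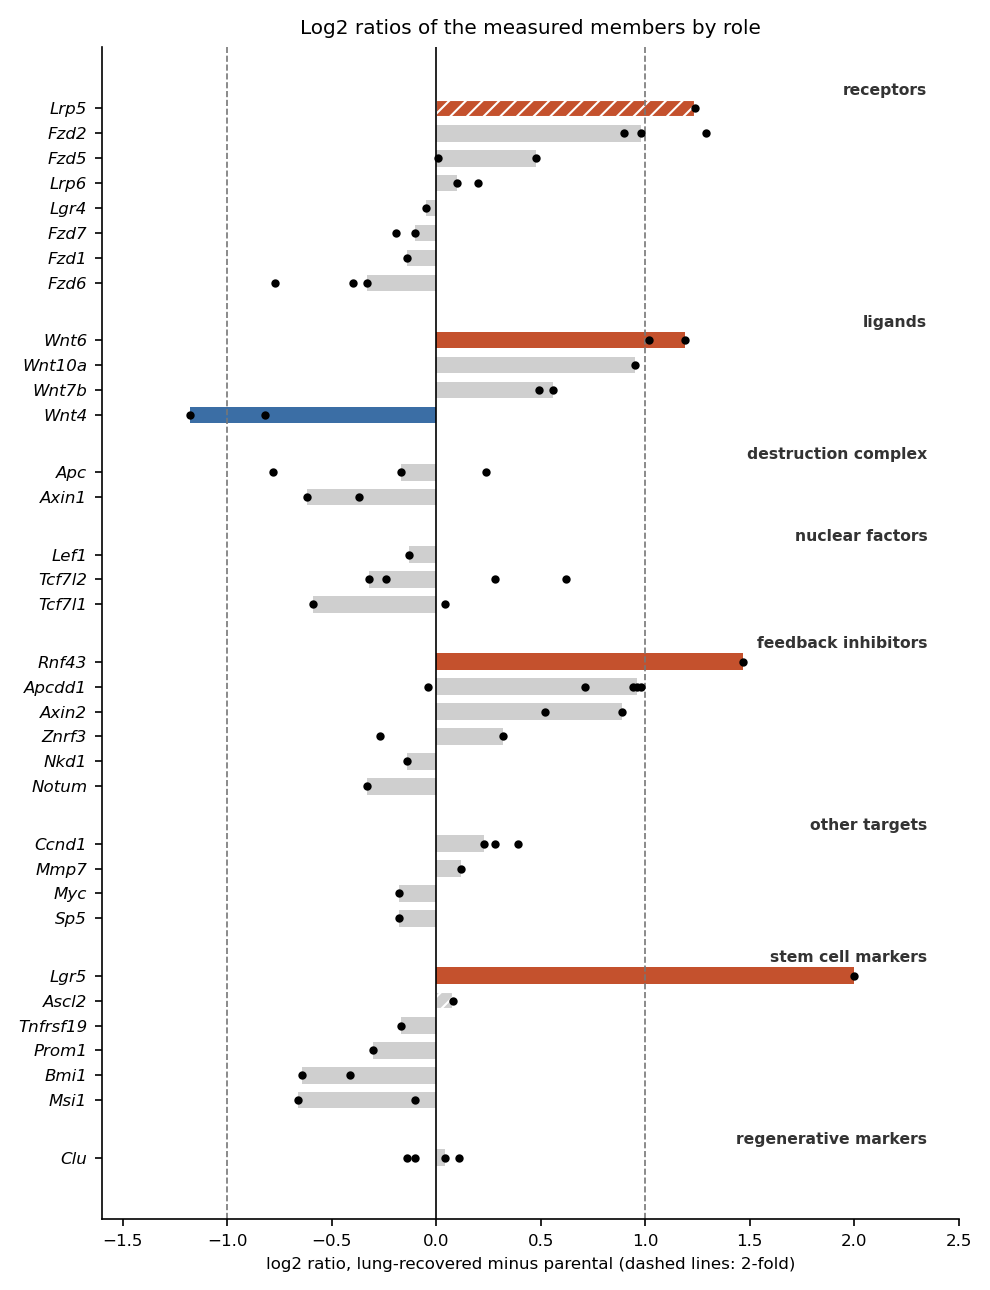
Log2 ratio, lung-recovered minus parental, of the 34 measured members by role. Bars show the brightest probe set, hatched where 1 array was at the floor so that the ratio is a bound. Points show every probe set above the floor on at least 1 array, and dashed lines mark 2-fold. Lgr5, Rnf43, Lrp5 and Wnt6 pass the upper line and Wnt4 the lower one.

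Of the 8 stem cell marker genes, 6 were measured. Lgr5, the R-spondin receptor that marks crypt base stem cells, read 6.54 in the parental line and 8.54 in the lung-recovered line by probe set 1450988_at, or 4-fold higher. It was above the floor on both arrays, and 105 of the 13332 measured genes, or 0.788%, had a ratio at least as high. A second Lgr5 probe set, 1444519_at, read 4.53 and 4.47 and was at the floor on both arrays, so the difference rests on 1 probe set. The log2 ratio of Lgr5 exceeded that of Lgr4 by 2.05 and that of Lgr6 (7.02 and 7.17), which is not among the 43 genes, by 1.85.

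The other stem cell markers did not share the higher signal of Lgr5. Olfm4 (2.52 and 2.45) and Smoc2 (2.92 and 2.84), which mark the same crypt base cells, were at the floor on both arrays. Ascl2, a transcription factor of those cells, was just over the floor on the lung-recovered array alone, at 4.44 and 4.77. Tnfrsf19 read 4.88 and 4.71, close to the floor, by its only measured probe set. Prom1, which encodes the surface protein CD133, was bright and slightly lower at 12.36 and 12.06. Msi1, an RNA-binding protein gene, read 5.99 and 5.33 by 1 probe set and 5.18 and 5.08 by another. Bmi1, a Polycomb gene also used as a stem cell marker, was lower by both probe sets, at 10.00 and 9.36 (1.56-fold) and at 9.14 and 8.73. Thus 1 of the 6 was at least 2-fold higher (16.7%, beside 4.42% of all measured genes). Log2 ratios above 0 made up 33.3% of the 6, beside 49.2% of all measured genes. The other 4 lay below 0, and the median was -0.23. So few genes cannot set the list apart from all measured genes.

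Clu, a marker of the regenerating gut epithelium, was bright on both arrays and nearly the same, at 10.77 and 10.81. Its other probe sets gave log2 ratios of -0.14, -0.10 and 0.11. It was the only regenerative marker analysed.

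Probe sets of a gene give the only spread these data contain. It is the spread of their log2 ratios between the same 2 arrays, and it does not measure variation between cultures or repeated arrays. Over 6172 genes with several measured probe sets, the median SD of the log2 ratio was 0.18 and its 90th percentile 0.52. Of the 19 members with several, 13 had all of them on the same side of 0 and 6 did not, namely Apc, Tcf7l1, Tcf7l2, Znrf3, Apcdd1 and Clu. Of the 5 members at least 2-fold apart, 3 (Lgr5, Rnf43 and Lrp5) rest on 1 measured probe set each. Log2 ratios of 0.5 or more were found for 9 of the 34 members, 14.7% of all measured genes being as high, and of -0.5 or less for 5, beside 9.31% of all measured genes.

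The remaining pathway genes came from a list of 106 by textbook role, of which 78 were measured. At least 2-fold higher were 6 of the 78 (7.69%, beside 4.42% of all measured genes) and 1 was lower (1.28%, beside 2.55%), with a median log2 ratio of 0.10. Ptk7, a pseudokinase co-receptor of Wnt and planar polarity signalling, read 4.90 and 7.01 and was 4.32-fold higher. Its parental value lay close to the floor of 4.69, and it had only 1 probe set. Dvl2, which relays the signal from Frizzled, was 2.64-fold higher at 7.07 and 8.47 and 2.57-fold by a second one (5.94 and 7.30), while Dvl1 (10.36 and 10.15) and Dvl3 (5.75 and 5.23) were slightly lower. The ligand gene Wnt9a read 4.35 and 6.50, at least 3.51-fold higher, and was at the floor by its other probe set. Wnt7a, also a ligand gene, had no single direction. It read 7.09 and 6.78 by its brightest probe set but 5.40 and 6.73, or 2.51-fold higher, by 1423367_at. Celsr1, a planar polarity cadherin gene, read 6.16 and 7.24 by its only probe set and was 2.11-fold higher.

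Among other epithelial targets, the ion cotransporter gene Slc12a2 was 2.36-fold higher at 8.94 and 10.18, with 2.81-fold and 2.87-fold by its other probe sets, and Jun was 2.03-fold higher at 9.76 and 10.78 but 1.77-fold by its second probe set. The secreted inhibitor gene Sfrp4 read 7.44 and 6.37 by its only probe set and was 2.10-fold lower. Of the 21 genes of the cytoplasmic core, Dvl2 alone was 2-fold apart by its brightest probe set. That is 4.76% higher, close to the 4.42% of all measured genes, and the list had a median log2 ratio of 0.12. The probe sets of Dact2, another core gene, disagreed. Its brightest read 6.49 and 6.01, but 1437929_at read 5.33 and 7.13, or 3.48-fold higher, and 1443973_at gave a log2 ratio of 0.63. Ctnnb1, which encodes beta-catenin, read 13.09 and 13.47 and had log2 ratios of 0.37 and 0.41 by its other probe sets, all on the same side. Gsk3b, the kinase that marks beta-catenin for destruction, read 10.37 and 10.54, and Csnk1a1, the priming kinase, read 11.53 on both arrays, while some dim probe sets of each were lower. All 17 measured nuclear cofactors lay within 2-fold, beside 4.42% higher and 2.55% lower over all measured genes. Their log2 ratios ran from -0.50 for Crebbp to at least 0.49 for Tle2, which was at the parental floor.

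**Figure D3:**
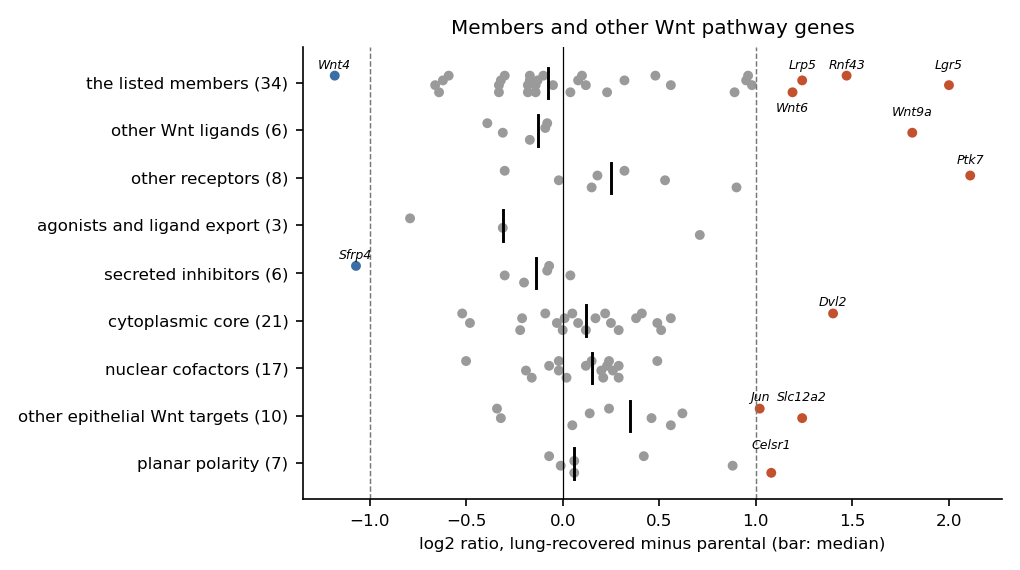
Log2 ratio, lung-recovered minus parental, of the 34 measured members and of 78 other measured Wnt pathway genes by role, with the number of genes in brackets. Each point is the brightest probe set of a gene, black bars are medians, and dashed lines mark 2-fold. Ptk7, at 2.11, lies furthest right among the other pathway genes, and Sfrp4, at -1.07, furthest left.

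The place of the members in the genome was compared with their ratios, a look taken after the values had been seen. Chromosomes and gene order came from GRCm38.p6, and up to 4 array genes on each side were read. Wnt6 and Wnt10a lie side by side on chromosome 1 and had log2 ratios of 1.19 and 0.95. Cyp27a1, a sterol hydroxylase gene on the other side of Wnt6, read 6.44 and 7.53 and was 2.13-fold higher, with the unmeasured Prkag3 between them. The next measured genes outward, Ttll4 and Cdk5r2, both had a log2 ratio of -0.36, so the higher ratios covered Cyp27a1, Wnt6 and Wnt10a and no measured gene next to them.

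Lgr5 lies on chromosome 10, near the tetraspanin gene Tspan8. Tspan8 read 9.16 and 11.74 and was 5.98-fold higher, with log2 ratios of 2.60, 1.89, 1.68 and 0.23 by its other probe sets. The predicted gene A930009A15Rik between them was at the floor on both arrays. On the other side of Lgr5, Zfc3h1, Thap2, Tmem19 and Rab21 ran from -0.52 to 0.43, and beyond Tspan8 the ratios were -0.13 for 4930422I22Rik and -0.03 for Ptprr. Of the genes read beside Rnf43 (chromosome 11) only 3 were measured, and they lay between -0.15 and 0.30. The 8 measured neighbours of Lrp5 (chromosome 19) lay between -0.67 and 0.80. Those of Wnt4 (chromosome 4), 5 in number, lay between -0.26 and 0.13. None of the measured neighbours of those 3 genes was 2-fold apart, beside 4.42% higher and 2.55% lower over all measured genes. Among members short of 2-fold, Fzd2 (chromosome 11) lay beside Gm11627, which read 6.03 and 7.42 and was 2.62-fold higher. Axin2 and Apcdd1 had no measured neighbour 2-fold apart.

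**Figure D4:**
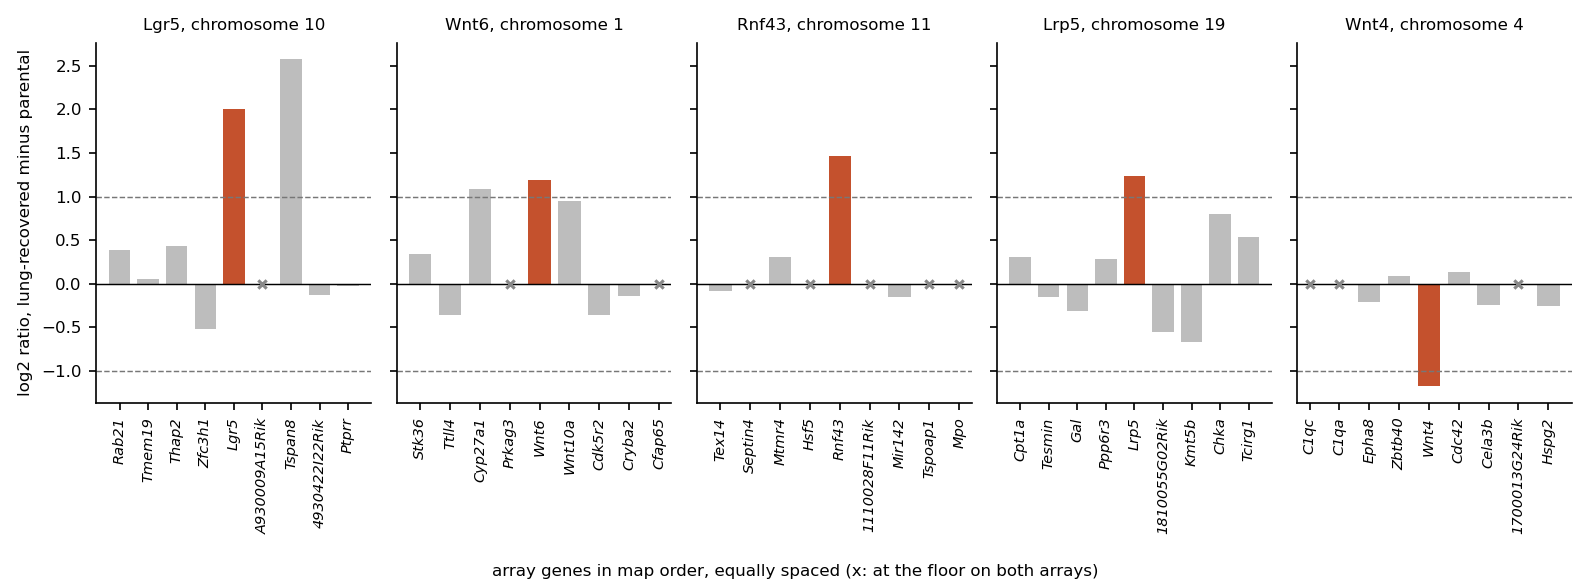
Log2 ratio, lung-recovered minus parental, of the 5 members at least 2-fold apart (coloured bars) and of up to 4 array genes on each side (grey bars) in map order, equally spaced. Crosses mark genes at the floor on both arrays, and dashed lines mark 2-fold. Tspan8 beside Lgr5, at 2.58, and Cyp27a1 beside Wnt6, at 1.09, pass the upper line.

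The cell type of the cultures was checked with marker genes. Of 14 gut epithelial markers 10 were measured, and the summed linear signal over the list was 25271 in the parental line and 32941 in the lung-recovered line. Cdh1, Krt8, Krt18, Krt19, Epcam and Cldn7 were bright on both, Krt19 most so at 12.72 and 12.98. The intestinal genes Cdh17 (2.00-fold) and Gpa33 (2.10-fold) were higher in the lung-recovered line (Gpa33 1.95-fold by its other probe set), but Krt20, Vil1, Cdx1 and Lgals4 stayed at the floor in both lines and Cdx2 was dim (5.24 and 5.08). The cultures thus carried general epithelial genes, with several of the genes that define gut epithelium at the floor.

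Markers of host lung cells were read beside the members, since a primary culture could hold such cells. Of 14 fibroblast and mural markers 7 were measured, Des being brightest at 6.78 and 6.23. Among these 7, 0 were 2-fold apart, beside 4.42% higher and 2.55% lower over all measured genes. The summed signal over that list was 471 and 409, and the defining genes Col1a1, Col3a1, Lum and Pdgfra were at the floor on both arrays. Of 11 endothelial markers 5 were measured, and all 11, those at the floor included, summed to 1130 and 1286. Cdh5 was at least 24.4-fold higher by its brightest probe set but at least 1.78-fold by its other, Tek was at least 15.8-fold lower, Esam was brightest at 8.93 and 8.70, and Pecam1, Vwf, Emcn and Plvap were at the floor. Of 11 leukocyte markers on the array 7 were measured, and all 11 summed to 1938 and 1103, or 353 and 539 without Cd14. Cd68 (3.53-fold) and Csf1r (2.17-fold, with other probe sets at 1.72-fold and 1.01-fold) were higher and Cd14 (2.81-fold, the brightest) was lower, with Ptprc, Adgre1 and Itgam at the floor. Of 14 lung epithelial markers 10 were measured, and all 14 summed to 2524 and 1908, or 884 and 877 without Aqp5. Rtkn2 was higher by at least 3.51-fold and Napsa 4.14-fold lower, Aqp5 was brightest at 10.68 and 10.01, and Nkx2-1, Scgb1a1 and Sftpa1 were at the floor. The part of the markers that differed in the members' ratios was not tested.

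The members furthest from 0 were followed through other ways of processing the values. Lgr5 stayed between 1.94 and 2.10 log2 and Rnf43 between 1.39 and 1.57. Wnt6 dropped to 0.90 under a floor at the 60th percentile, and Lrp5 was then not measured. Fzd2, Wnt10a and Apcdd1 passed 2-fold when the arrays were brought to equal medians, at 1.08, 1.05 and 1.06, and Fzd2 did so under lowess as well (1.01). Other alternatives lowered them. Fzd2 fell to 0.71 under the 60th percentile floor and Wnt10a to 0.86 after quantile normalization. Apcdd1 fell to 0.71 without probe sets whose suffix is _s, _x or _a. Axin2 ran from 0.71, by the median over probe sets, to 0.99 with equal medians. Wnt4 ran from -1.26 to -1.0.

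**Figure D5:**
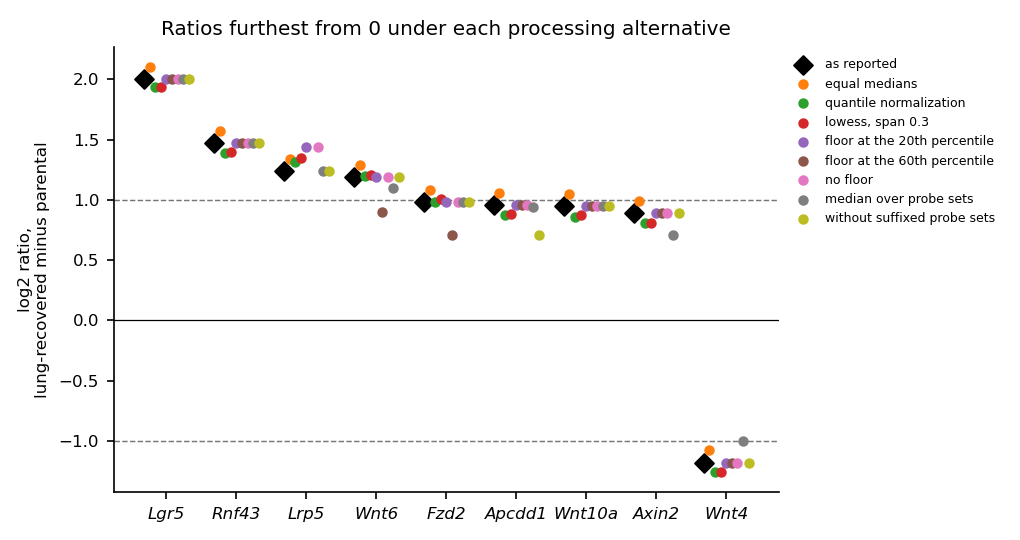
Log2 ratio, lung-recovered minus parental, of the 9 members furthest from 0 under each processing alternative. Black diamonds are the values as reported, coloured points the alternatives, and dashed lines mark 2-fold. Lgr5 and Rnf43 lie above the upper line under each of them. Points of Fzd2, Apcdd1 and Wnt10a fall on both sides of it, from 0.71 to 1.08 for Fzd2.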

How the data were processed

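Total RNA of each culture, 6 µg per array, was turned into biotin-labelled cRNA, per the labels' protocols. The deposited values were log2 signals for 45037 probe sets on each of the 2 arrays, with the base of the logarithm inferred from their range. MAS5 is listed, without a role, in the submitters' processing notes. The scaling between arrays was not given in the sources used here. The values were used as deposited, with medians of 5.36 (parental) and 5.26 (lung-recovered).

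A platform annotation named 34945 probe sets with 1 symbol. Another 932 had several symbols and 9160 were unlisted, and neither kind was named. Updating symbols by Entrez identifier changed 0 of them. Values under an array's 40th percentile were set to it before the ratio was taken, and a ratio with 1 array at that floor is a bound. Genes were counted at 2-fold, with no test, since each group had 1 array. The number of arrays limits all precision. Calculations used Python with numpy and pandas and were tested on simulated data.

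The members and lists were chosen with earlier results of these data known. All 43 members are accounted for, with full values for those 2-fold apart and for the extremes of each role. Of the other pathway genes, those 2-fold apart and Ctnnb1, Gsk3b and Csnk1a1 were named, and of each marker list the brightest and those 2-fold apart. Genes named beyond this rule, such as Fzd5, Dvl1, Crebbp and Tspan8, were chosen after their values were seen.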

Additional observations from a re-analysis of the deposited data

How the results depend on the processing

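No member at least 2-fold apart changed sign under any of the 9 alternatives that give a ratio, where it was measured. Of 289 member ratios recomputed, 275 moved by no more than 0.18 log2 and 14 by more. Part of this count was fixed beforehand. Equal medians moved every ratio by 0.10, and the symbol update changed 0 symbols. A lower floor, or none, could act only on Lrp5 and Ascl2, the members at the floor on 1 array. The count is therefore no measure of stability. Among the members, 7 (20.6%, beside 5.40% of all measured genes) were at least 2-fold higher with equal medians, which raises the median of all measured genes to 0.10, and 2 under a floor at the 60th percentile, which leaves 23 of them measured (8.70%, beside 4.43%). A 1.5-fold rule gave 8 members higher (23.5%, beside 11.5% of all measured genes) and 5 lower (14.7%, beside 6.95%). Of the other pathway genes, 10 were higher (12.8%) and 2 lower (2.56%) by that rule, and 0 were lower with equal medians. The members' median log2 ratio was 0.03 with equal medians or without probe sets whose suffix is _s, _x or _a, -0.03 after quantile normalization or lowess (span 0.3), -0.04 by the median over probe sets and 0.10 under a 60th percentile floor, so its sign is not settled. That of the other pathway genes was 0.20 with equal medians, 0.06 under a 20th and 0.21 under a 60th percentile floor. The cause of these shifts was not tested. Symbols without the update gave the same values. No paired analysis was possible because each group had 1 array. Genes near the floor, such as Lrp5, Ascl2, Sp5 and Tnfrsf19, are limited by signal over background.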

Other observations

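Markers of the secretory and tuft lineages, cell types that leave the crypt stem cell pool, were mostly dim. Of 14 such markers, 13 had a probe set and 7 were measured. Among these 7, 0 were 2-fold apart, beside 4.42% higher and 2.55% lower over all measured genes. The brightest, the goblet cell gene Spink4, read 9.13 in the parental line and 8.50 in the lung-recovered line. The goblet cell mucin gene Muc2 read 5.31 and 5.35, and Atoh1, the master factor of the secretory lineage, read 4.87 and 4.92. The Paneth cell gene Lyz1, the enteroendocrine genes Chga, Chgb, Neurod1 and Neurog3 and the tuft cell channel gene Trpm5 were at the floor on both arrays. The median log2 ratio over the 7 was -0.16. Over all 13 with a probe set, those at the floor included, the summed linear signal was 932 and 706, or 372 and 344 without Spink4.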
